A study of Sus scrofa with 20 samples.

Results

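The ileal mucosa of piglets 7 days after weaning was compared with that of piglets on the day of weaning. The weaned group, 21W28D, had been taken from the sow at 21 days of age and was killed at 28 days (3 arrays). The suckling group, S21D, was killed at 21 days of age while still on milk (4 arrays). These 7 of 20 arrays were chosen by their deposited labels, and each had been hybridised with RNA of 1 piglet. The platform was the GeneChip Porcine Genome Array of Affymetrix, which reads transcripts near their 3′ end. The other arrays of the series came from suckling piglets of 14, 28 and 35 days (S14D, S28D and S35D, with 3, 4 and 3 arrays) and from piglets weaned at 21 days and killed at 35 days (21W35D, 3 arrays). All piglets were crosses of Landrace, Large white and Duroc. Suckling piglets had no access to the sow's feed, and weaned piglets ate a commercial weaner diet. The 21W28D group as described held 4 piglets, 1 more than the arrays analysed here. It was both 7 days older and weaned, so that age and weaning cannot be told apart in this comparison, and the S28D group, of the same age and not weaned, is given beside it. Mucosa was scraped off the ileum as a mix of epithelium, lamina propria and lymphoid tissue. In such bulk samples fewer cells of a type and less RNA per cell cannot be told apart.

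The labels S35D and 21W28D may have been exchanged, and the groups are used here as labelled. Over 12267 probe sets with a mean over 5 log2 units, replicates 2 and 3 of 21W28D correlated best with the mean of the suckling S28D arrays (r = 0.9755 and 0.9869). Replicate 1 correlated best with the mean of the weaned 21W35D arrays (r = 0.9601). The 3 arrays labelled S35D, a suckling group, had correlations of 0.9562 to 0.9766 with the weaned 21W35D mean and of 0.8817 to 0.9584 with the S28D mean. In the paper's real-time PCR the means of ISG15, USP18 and IFIT2 were higher in 21W28D than in S35D. The arrays as labelled read the reverse. ISG15 averaged 10.08 in 21W28D and 14.31 in S35D, USP18 9.93 and 12.68, and IFIT2 10.12 and 13.17. The reason was not tested. Replicate 1 of 21W28D also stood apart from its own group. Its score of the germinal centre and follicle list was -0.61, against 1.79 and 1.69 for replicates 2 and 3. Its B cell score was 0.05, against 1.19 and 1.01. A score is the mean over those genes of a list that reach 4 log2 units, each centred on its mean over all 20 arrays. Values that turn on this array, or on the exchange of the labels, are given with the results they touch.

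The ileum of a suckling piglet is lined early in life by vacuolated enterocytes, which take up milk proteins by endocytosis and break them down in large lysosomes. These cells give way to enterocytes of the adult type around weaning age. At the same time T cells settle in the epithelium and lamina propria, and the follicles of Peyer's patches, rich in B cells, expand. Weaning removes milk antibodies and adds feed and microbial antigens. Enterocyte markers were high in both groups: the bile acid-binding protein FABP6 ranged over 15.84 to 16.01 in 21W28D and 15.50 to 16.01 in S21D, and the adhesion molecule EPCAM over 14.61 to 14.87 in 21W28D and 14.66 to 14.98 in S21D. All 5 enterocyte, all 4 T cell and all 3 measured smooth muscle markers averaged at least 4 log2 units in both groups. The monocyte receptor CD14 lay at the floor of the values (2.09) in both, while the macrophage marker CD163 averaged 5.47 in 21W28D and 5.90 in S21D. Of the enteroendocrine markers, the granin CHGA lay at the floor (2.08) in both. The granin CHGB was dim (3.18 in 21W28D and 2.95 in S21D), and the hormone SST was bright (10.82 in 21W28D and 10.84 in S21D).

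Across all probe sets 127 were 2-fold higher and 159 were 2-fold lower in 21W28D at any p. No probe set of the 23999 tested passed an adjusted p of 0.05 with a 2-fold difference (0% called), and the lowest adjusted p was 0.0522 (limma, Benjamini-Hochberg). At an unadjusted p under 0.05 there were 606 probe sets (2.53%), of which 380 were higher (1.58%) and 226 lower (0.942%) in 21W28D, and of these 69 and 79 also differed 2-fold. Among the 13308 probe sets with a mean of at least 4 in either group, 2.02% were higher and 1.48% lower at that unadjusted p. All 21W28D arrays lay above all S21D arrays in 404 probe sets (1.68%) and below them in 328 (1.37%). A threshold of 0.05 passes that share of probe sets where none differs, so the genes below are described one by one as values, and none of them passed after adjustment over all probe sets. The same fit against the same S21D arrays called 1 probe set in S28D (0.00417%), 382 in the arrays labelled S35D (1.59%) and 54 in 21W35D (0.225%). These comparisons share the S21D arrays.

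Genes of T cells had higher values in 21W28D, none of them past the adjusted threshold. Of 17 measured genes of the T cell list, 9 were higher at an unadjusted p under 0.05, against 1.58% of all probe sets, and none was lower. This list and the others were chosen with earlier results of these data known, so such counts are descriptions and not tests. The median difference of the list was 0.89 log2 units, against 0.00 over all probe sets. In 7 members the 2 groups did not overlap, against 1.68% of all probe sets, and the other members included CD4, CD27 and CCR7, which lay at the floor on nearly all arrays. Restricted to probe sets that reach 4 log2 units on 3 or more arrays, the median was 1.39. A gene can pass this filter through a group where it is high. CD8B, for 1, averaged 4.54 in 21W28D and 2.78 in S21D. The higher median under the filter is therefore no further support. The list's score was 0.23, 1.33 and 1.00 on the 21W28D arrays and -0.45, -0.30, 0.21 and -0.60 on the S21D arrays, so that replicate 1 of 21W28D and replicate 3 of S21D nearly met.

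Invariant chains of the T cell receptor complex were among these 9 genes. CD3G, singled out after its values were seen because its p was the lowest of all probe sets, read 8.30, 8.73 and 8.56 in 21W28D and 7.02, 7.54, 7.58 and 6.95 in S21D. Its difference was 1.26 ± 0.18 (SE), a 2.39-fold higher level (limma adjusted p = 0.0522). All 3 weaned piglets lay clear of the highest suckling one. CD3E read 7.73, 8.0 and 7.45 in 21W28D and 5.72, 6.17, 6.86 and 5.96 in S21D (difference 1.55 ± 0.42). CD3D, which like CD8A and LAT below was named after its values were seen, read 5.32, 6.50 and 6.34 in 21W28D and 4.04, 4.91, 5.02 and 4.72 in S21D. Neither gene's groups overlapped, and CD247, the zeta chain of the same complex, did not share the pattern (8.34, 9.66 and 9.0 in 21W28D and 8.47, 8.71, 9.53 and 8.76 in S21D).

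The CD8 co-receptor of cytotoxic T cells had higher values for both chains. CD8B read 3.33, 5.25 and 5.05 in 21W28D and 2.71, 2.85, 3.07 and 2.47 in S21D (difference 1.76 ± 0.79). CD8A read 8.55, 9.57 and 9.45 in 21W28D and 7.48, 7.88, 8.28 and 7.56 in S21D (difference 1.39 ± 0.53). In both chains the groups were apart by a narrow gap, and replicate 1 was the lowest 21W28D array. SH2D1A, the adaptor SAP of T and NK cells, had the largest difference of the list (2.12 ± 0.63), with 7.96, 9.18 and 9.66 in 21W28D and 6.52, 6.86, 7.46 and 6.42 in S21D. LAT, the scaffold below the T cell receptor, read 5.17, 6.48 and 6.23 in 21W28D and 4.64, 4.69, 4.69 and 4.01 in S21D. The adhesion receptor CD2 overlapped, with 6.82, 8.82 and 8.06 in 21W28D and 6.01, 6.11, 7.36 and 5.62 in S21D (difference 1.62 ± 0.53). CCR9, the receptor that guides lymphocytes to the small intestine, read 8.03, 7.71 and 6.66 in 21W28D and 6.65, 6.44, 6.87 and 6.32 in S21D, again with an overlap. Here replicate 1 was the highest of the weaned arrays, not the lowest. PRKCH, a protein kinase C of epithelial and T cells that belongs to none of the lists, had a pattern as tight as that of CD3G. It read 8.07, 7.67 and 8.18 in 21W28D and 6.79, 7.26, 6.74 and 6.61 in S21D (difference 1.13 ± 0.17, limma adjusted p = 0.0529). It too was named after its values were seen.

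**Figure D1:**
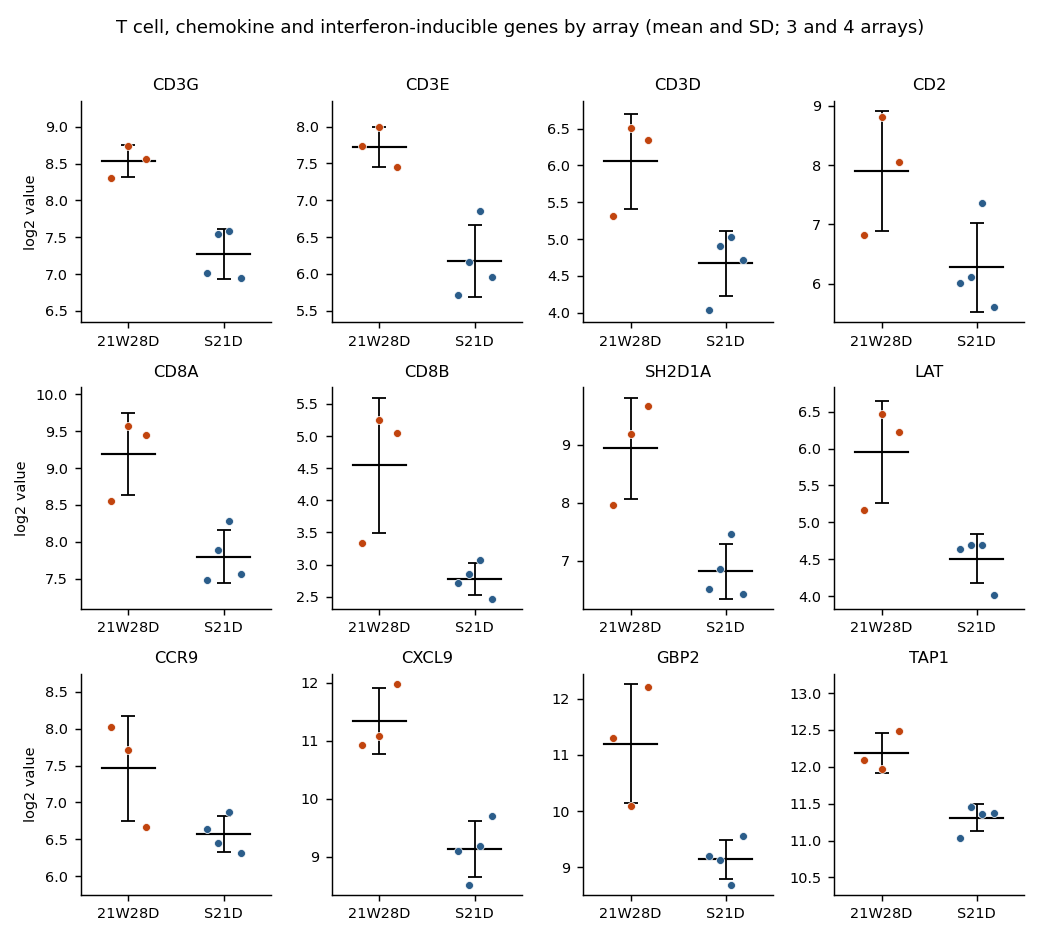
Log2 values of 12 T cell, chemokine and interferon-inducible genes on the 3 21W28D arrays (left in each panel) and the 4 S21D arrays (right), 1 point an array in the order of the replicate numbers, with the mean and SD. The weaned arrays lie above the suckling ones without overlap in all panels but CD2 and CCR9. Replicate 1 is the lowest weaned array in CD3G, CD3D, CD2, CD8A, CD8B, SH2D1A, LAT and CXCL9. The y axes differ between panels.

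In the suckling S28D piglets of the same age as 21W28D, CD3G and PRKCH averaged between the groups and nearer to S21D. CD3G averaged 8.53 ± 0.22 in 21W28D (SD, n = 3), 7.61 ± 0.19 in S28D (n = 4) and 7.27 ± 0.33 in S21D (n = 4). PRKCH averaged 7.97 ± 0.27 in 21W28D, 7.01 ± 0.27 in S28D and 6.85 ± 0.28 in S21D. The median difference of the T cell list from S21D was 0.89 in 21W28D, 0.42 in S28D, 1.18 in 21W35D and 0.02 in the arrays labelled S35D. An exchange of the labels would thus leave almost no shift of the list median. Single members would keep higher values: over S21D the arrays labelled S35D differed by 1.34 in CD2, 1.34 in CD8A, 1.35 in CD8B, 0.91 in CD3E and 0.82 in CD3D, none of them past the adjusted threshold. CD3G differed by 0.71 (limma adjusted p = 0.0402) and PRKCH by 1.01 (limma adjusted p = 0.0104). CD247 (-1.96), LCK (-0.90), CD69 (-1.09), CCR9 (-0.55) and IL7R (-0.52) were lower there by value.

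Of 8 measured genes of cytotoxic granules and NK cells, 3 were higher at an unadjusted p under 0.05, against 1.58% of all probe sets, none was lower, against 0.942%, and the list's median difference was 0.26. GZMH, a granule protease, read 8.17, 7.42 and 7.78 in 21W28D and 5.62, 6.59, 6.83 and 7.05 in S21D (difference 1.27 ± 0.58). KLRK1, the activating receptor NKG2D, read 8.43, 7.70 and 8.15 in 21W28D and 6.91, 7.60, 7.07 and 7.46 in S21D (difference 0.84 ± 0.32). In both the groups did not overlap, as in 1.68% of all probe sets. CTSW, a protease of cytotoxic lymphocytes named here to complete the 3, lay near the floor (3.43, 3.29 and 2.71 in 21W28D and 2.67, 2.71, 2.71 and 2.74 in S21D). FCGR3A, the Fc receptor CD16 of NK cells and macrophages, is on no list of lymphocytes here and was named after its values were seen. It read 10.26, 10.73 and 10.21 in 21W28D and 8.85, 8.97, 8.72 and 8.61 in S21D (difference 1.61 ± 0.31, limma adjusted p = 0.225), a gap of over 1 log2 unit between the groups.

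The MHC class I list, with the swine heavy chains and the proteins that cut, carry and load peptides, had higher values in 14 of 15 members, by small amounts. Its median difference was 0.35, 5 members were higher at an unadjusted p under 0.05 against 1.58% of all probe sets, and 6 did not overlap, against 1.68%. TAP1, a subunit of the peptide transporter, read 12.10, 11.98 and 12.49 in 21W28D and 11.04, 11.45, 11.37 and 11.37 in S21D (difference 0.88 ± 0.29). SLA-8 read 10.87, 10.49 and 10.59 in 21W28D and 9.76, 9.87, 10.10 and 10.08 in S21D (difference 0.70 ± 0.16), and a second probe set of SLA-8 gave 0.71. PSMB8, a subunit of the immunoproteasome, differed by 0.54 ± 0.23, the classical heavy chain SLA-2 by 0.38 ± 0.13, and PSME1, an activator of the proteasome named here to complete the 5, by 0.25 ± 0.12. B2M, the light chain, was the brightest member at 15.25 to 15.30 in 21W28D and 15.03 to 15.25 in S21D. The heavy chain genes are near-identical copies, and a probe set named for 1 of them may read others. The list's score was 0.25, -0.02 and 0.18 in 21W28D and lay between -0.24 and -0.19 in all 4 S21D arrays, so that the groups did not overlap. In S28D the list's median difference from S21D was 0.19, in 21W35D 0.75 and in the arrays labelled S35D 0.47.

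**Figure D2:**
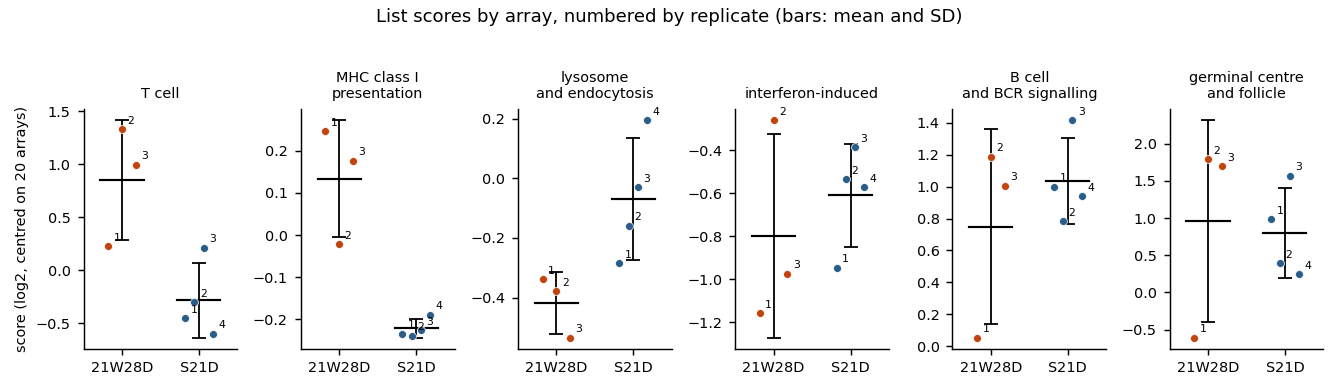
Scores of 6 gene lists (y axis, mean of the list's genes in log2 units after centring each gene on all 20 arrays) on the 3 21W28D arrays (left) and the 4 S21D arrays (right), numbered by replicate, with the mean and SD. The T cell, MHC class I and lysosome scores do not overlap between the groups, while the interferon, B cell and germinal centre scores do, with replicate 1 of 21W28D the lowest of all 7 arrays in these last 3.

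Of 21 measured genes of the interferon-induced list, 2 were higher at an unadjusted p under 0.05, against 1.58% of all probe sets, and none was lower, against 0.942%. These were the guanylate-binding proteins, strongly induced by interferon gamma. GBP2 read 11.30, 10.09 and 12.22 in 21W28D and 9.19, 9.13, 8.69 and 9.55 in S21D (difference 2.06 ± 0.80). GBP1 read 13.02, 12.58 and 13.88 in 21W28D and 11.99, 11.94, 11.87 and 12.12 in S21D (difference 1.18 ± 0.52). Neither overlapped. CXCL9, a chemokine that draws activated T cells and is likewise induced by interferon gamma, read 10.93, 11.09 and 11.98 in 21W28D and 9.11, 8.52, 9.18 and 9.70 in S21D (difference 2.21 ± 0.94). CCL5, another T cell chemokine, read 10.50, 10.00 and 8.99 in 21W28D and 7.78, 8.85, 8.37 and 8.98 in S21D, so that replicate 3 of 21W28D only just exceeded replicate 4 of S21D. In the suckling S28D piglets these genes differed among themselves. CXCL9 averaged 11.33 ± 0.57 in 21W28D, 11.45 ± 2.33 in S28D and 9.13 ± 0.48 in S21D (SD), and GBP2 averaged 11.20 ± 1.07 in 21W28D, 10.69 ± 1.73 in S28D and 9.14 ± 0.35 in S21D. CCL5 averaged 9.83 ± 0.77 in 21W28D, 8.50 ± 0.89 in S28D and 8.50 ± 0.54 in S21D, so that S28D was at the S21D level in this gene.

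Over the whole interferon-induced list the median difference was -0.28, with 14 members lower by value. It was -0.18, -0.55 and -0.12 without replicate 1, 2 or 3 of 21W28D. ISG15, a ubiquitin-like modifier, read 9.22, 11.37 and 9.65 in 21W28D and 10.24, 10.97, 11.57 and 11.01 in S21D. Its protease USP18 read 9.64, 10.39 and 9.78 in 21W28D and 10.31, 10.88, 10.74 and 10.26 in S21D. In both genes replicate 2 of 21W28D lay among the suckling arrays while replicates 1 and 3 lay below all of them. IFIT2, an inhibitor of viral translation, read 9.54, 10.43 and 10.40 in 21W28D and 9.55, 9.71, 9.79 and 9.70 in S21D. The list's median difference from S21D was 0.69 in S28D, 1.99 in 21W35D and 2.46 in the arrays labelled S35D, where ISG15 differed from S21D by 3.36, USP18 by 2.14 and IFIT2 by 3.48 (limma adjusted p = 0.01, 0.0102 and 0.00996).

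Genes of B cells had lower values that did not pass the test. All 8 measured members of the B cell list were lower by value, by 0.02 to 0.69 log2 units, none at an unadjusted p under 0.05, against 0.942% of all probe sets, and the median difference was -0.24. Without replicate 1 of 21W28D it was 0.12, and without replicate 2 it was -0.45. CXCL13, the chemokine that calls B cells into follicles, read 12.04, 14.09 and 13.79 in 21W28D and 14.18, 13.97, 14.39 and 13.78 in S21D, so that the lower mean rested on replicate 1. The adhesion receptor of follicular dendritic cells and vessels VCAM1 had the same form (12.42, 13.67 and 13.64 in 21W28D and 13.64, 13.66, 13.98 and 13.36 in S21D). ICAM1, a leukocyte adhesion molecule, read 8.50, 9.16 and 9.55 in 21W28D and 9.79, 9.45, 9.79 and 9.74 in S21D. The haematopoietic exchange factor VAV1 read 10.43, 11.26 and 11.34 in 21W28D and 10.88, 10.84, 11.20 and 11.01 in S21D, and SLA-DOA, a class II chain of B cells, 3.00, 5.95 and 3.23 in 21W28D and 4.12, 4.19, 6.26 and 5.08 in S21D. In the arrays labelled S35D the B cell list's median difference from S21D was -2.0, and in 21W35D it was -1.73.

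CXCL13, SLA-DOA, ICAM1, VAV1, VCAM1, ISG15, IFIT2, USP18 and the reference gene ACTB were followed singly in the study, together with IFI6, for which no probe set has this 1 symbol and no value is given. Each of these 9 was tested here by an exact permutation test over the 35 splits of the 7 arrays, for which the smallest p is 0.0286. The lowest two-sided p was 0.0571 (exact permutation), for ICAM1, which differed by -0.62 ± 0.53. The p-values of the other 8 genes lay between 0.143 (exact permutation, USP18, difference -0.61 ± 0.36) and 0.943 (VAV1, difference 0.03 ± 0.67), and all adjusted values were 0.411 or more. CXCL13 differed by -0.78 with a 95% interval of -4.75 to 3.20. This interval rests on the spread shared by all 6 groups. The SD of CXCL13 was 6.04 in 21W35D, a group outside this comparison, and far smaller in both 21W28D and S21D. With the shared spread neither a large fall nor a large rise could be told from no difference. The width therefore does not describe the 7 compared arrays alone. ACTB differed by -0.09, with an interval of -0.34 to 0.17.

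Genes of lysosomes and endocytosis had lower values in 21W28D. Of 23 measured members of the list 20 were lower by value, 5 at an unadjusted p under 0.05 against 0.942% of all probe sets, and none was higher. The median difference was -0.22, and -0.40 without replicate 1 of S21D. The suckling S28D piglets had the same median difference from S21D, -0.22. It was 0.02 in 21W35D and 0.06 in the arrays labelled S35D. DAB2, an adaptor that gathers receptors and their cargo into clathrin-coated pits, had the largest difference of the list (-2.30 ± 0.94). It read 8.89, 6.60 and 6.64 in 21W28D and 9.56, 8.14, 9.71 and 11.32 in S21D, and a second, less bright probe set, with 8.10, 8.31 and 7.82 in 21W28D and 9.28, 8.89, 9.28 and 9.67 in S21D, did not overlap. GUSB, the lysosomal beta-glucuronidase, read 11.04, 11.36 and 10.97 in 21W28D and 11.51, 11.70, 11.81 and 11.88 in S21D (difference -0.60 ± 0.20). LIPA, the lysosomal acid lipase, read 11.24, 11.37 and 11.43 in 21W28D and 11.70, 11.89, 11.91 and 11.84 in S21D (difference -0.48 ± 0.21). A less bright LIPA probe set differed by -0.71 ± 0.29 with an overlap. LAMP2, a protein of the lysosomal membrane named to complete the 5, differed by -0.42 ± 0.12 and also did not overlap. For NPC2, which carries cholesterol out of lysosomes, the brighter probe set differed by -0.57 ± 0.25 and another by -0.09.

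Among the genes named for the size of their difference, or as members of other lists, were the following. LGMN, the protease legumain, read 11.47, 11.08 and 11.51 in 21W28D and 12.27, 12.29, 12.15 and 12.83 in S21D (difference -1.03 ± 0.32). SMPDL3A, a phosphodiesterase related to acid sphingomyelinase, read 9.80, 10.13 and 9.82 in 21W28D and 10.93, 11.05, 11.36 and 11.44 in S21D (difference -1.28 ± 0.40). PLBD1, a phospholipase B-like protein, read 4.81, 6.15 and 6.22 in 21W28D and 6.98, 7.13, 8.52 and 8.83 in S21D on 1 probe set (difference -2.14 ± 0.55), while its brightest probe set differed by -0.13. MMP20, a metalloproteinase best known from tooth enamel, read 2.51, 3.63 and 2.08 in 21W28D and 4.84, 5.12, 6.41 and 7.05 in S21D (difference -3.11 ± 0.63, limma adjusted p = 0.289). The probe set with the largest difference of all named ones carries the symbol RACK1, a ribosomal scaffold, and read 6.90, 2.40 and 2.66 in 21W28D and 10.41, 8.87, 9.46 and 11.03 in S21D. The other RACK1 probe set was bright and level (14.30 to 14.52 in 21W28D and 14.39 to 14.47 in S21D), so that the 2 probe sets disagree about this gene.

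DAB2, SMPDL3A and LGMN had their highest levels at 14 days. DAB2 averaged 7.38 in 21W28D, 14.10 in S14D, 9.68 in S21D and 7.45 in S28D. SMPDL3A averaged 9.92 in 21W28D, 14.31 in S14D, 11.20 in S21D and 10.06 in S28D, and LGMN 11.35 in 21W28D, 14.58 in S14D, 12.38 in S21D and 11.29 in S28D. In each the S21D mean lay between those of S14D and S28D, and the suckling S28D mean was close to the weaned 21W28D mean. The 35-day groups did not continue this order: LGMN averaged 12.49 in 21W35D and 13.05 in the arrays labelled S35D, and SMPDL3A 10.88 in 21W35D and 11.61 in the arrays labelled S35D. Over all 52 genes that were lower in 21W28D (unadjusted p under 0.05, no overlap, mean of at least 4), the S14D mean was at least 1 log2 unit above the S28D mean in 24 (46.2%), against 11.9% of the 13308 probe sets with a mean of at least 4. The S14D and S28D arrays entered the choice of these genes through the shared estimate of the spread, not through their means. Over the 78 genes chosen in the same way as higher, it was at least 1 unit above in 2 (2.56%), and at least 1 unit below in 18 (23.1%), against 12.9% of the same probe sets. The mean of the older weaned piglets, 21W35D, was at least 1 unit above the S28D mean in 15 of the 78 higher genes (19.2%) and in 8 of the 52 lower genes (15.4%), against 4.69% of the same probe sets.

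**Figure D3:**
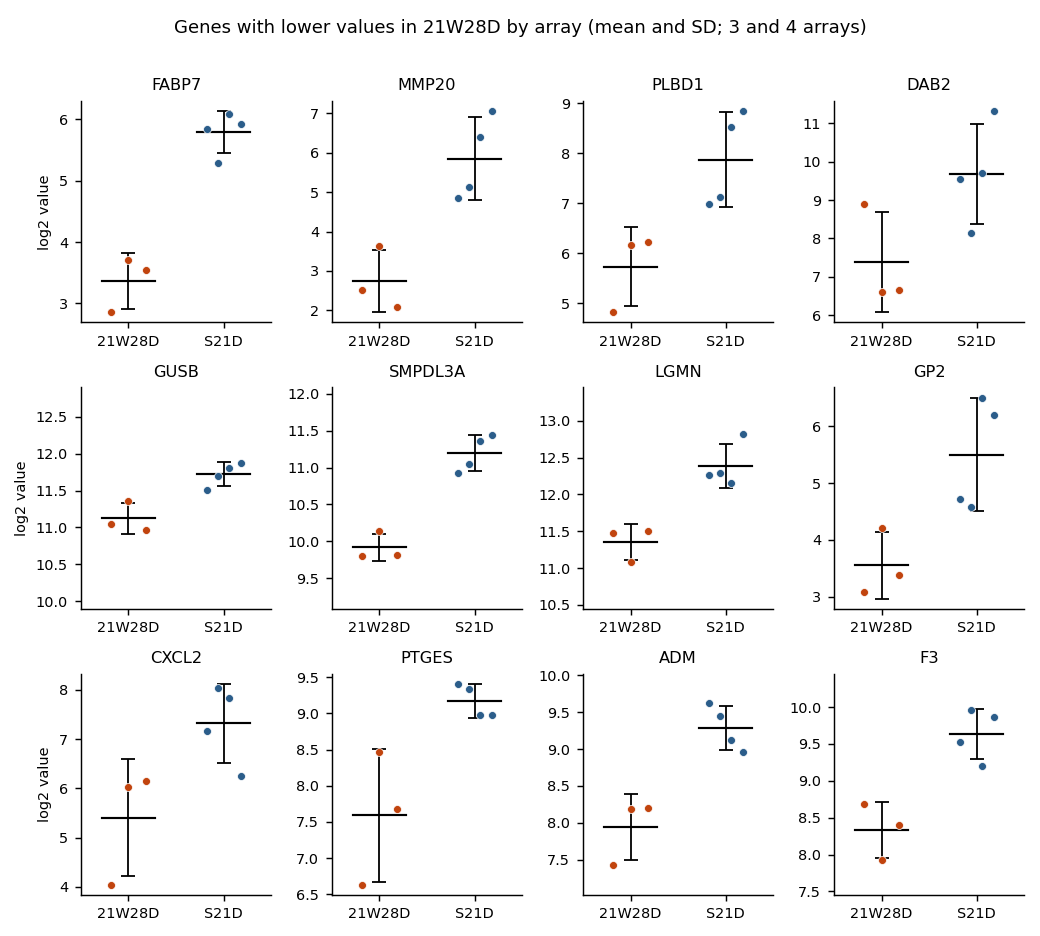
Log2 values of 12 genes with lower values in 21W28D (left in each panel, 3 arrays) than in S21D (right, 4 arrays), 1 point an array in the order of the replicate numbers, with the mean and SD. The groups do not overlap in any panel but DAB2, and in MMP20, PLBD1, DAB2, GUSB, SMPDL3A and LGMN replicate 4 of S21D is the highest array. The y axes differ between panels.

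FABP7, a fatty acid-binding protein best known from glia, was the lower gene nearest to the threshold. It read 2.85, 3.72 and 3.55 in 21W28D and 5.84, 5.30, 6.09 and 5.92 in S21D (difference -2.41 ± 0.36, limma adjusted p = 0.0524). Every other group lay low as well, with means of 2.98 in 21W35D, 2.34 in S14D, 3.51 in S28D and 2.37 in the arrays labelled S35D, so that S21D was the group that stood out. GP2, a receptor for bacteria on the M cells that cover Peyer's patches, read 3.07, 4.20 and 3.37 in 21W28D and 4.72, 4.57, 6.51 and 6.19 in S21D (difference -1.95 ± 0.67), and its brighter probe set differed by -2.15. C17H8orf4 read 6.23, 7.57 and 6.84 in 21W28D and 8.11, 8.61, 8.41 and 7.91 in S21D. UTP15, a protein of ribosome assembly, read 5.68, 5.05 and 5.02 in 21W28D and 6.36, 6.68, 6.57 and 6.53 in S21D.

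Several genes of inflammation, vessels and glucocorticoid response were lower by value. CXCL2, which draws neutrophils, read 4.04, 6.02 and 6.15 in 21W28D and 7.16, 8.03, 7.83 and 6.24 in S21D (difference -1.91 ± 0.73). PTGES, the synthase of prostaglandin E, read 6.63, 8.46 and 7.68 in 21W28D and 9.41, 9.34, 8.97 and 8.98 in S21D (difference -1.58 ± 0.39). In both genes replicate 1 of 21W28D was the lowest array. ADM, the vasodilator adrenomedullin, read 7.42, 8.19 and 8.20 in 21W28D and 9.62, 9.44, 9.12 and 8.96 in S21D, and F3, tissue factor, 8.68, 7.93 and 8.40 in 21W28D and 9.53, 9.96, 9.20 and 9.86 in S21D. Of 17 measured glucocorticoid-induced genes 3 were lower at an unadjusted p under 0.05, against 0.942% of all probe sets, and 4 did not overlap, against 1.37%. The list's median difference was -0.26. TSC22D3, the leucine zipper GILZ, read 9.20, 9.38 and 9.20 in 21W28D and 9.73, 10.11, 9.83 and 9.87 in S21D (difference -0.63 ± 0.28). ANGPTL4, an inhibitor of lipoprotein lipase, read 8.41, 7.98 and 8.38 in 21W28D and 8.97, 8.92, 9.07 and 9.86 in S21D (difference -0.95 ± 0.35). HSD11B2, which inactivates cortisol, differed by -1.03 ± 0.46 with an overlap. The list of inflammatory cytokine and NF-kB genes showed no common direction, with 9 of 22 higher and 10 lower by value.

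Of the detoxification genes, GSTA1, a glutathione transferase of enterocytes, had the largest difference of all named genes toward higher values. It read 11.03, 8.33 and 9.63 in 21W28D and 4.11, 5.18, 5.83 and 4.58 in S21D, a difference of 4.74 ± 0.74, or 26.6-fold (limma adjusted p = 0.0582). A second probe set gave 3.73. All weaned arrays lay at least 2 log2 units above all S21D arrays. S21D was again the group apart: GSTA1 averaged 9.66 in 21W28D, 12.06 in 21W35D, 9.10 in S14D, 4.93 in S21D, 11.50 in S28D and 14.65 in the arrays labelled S35D. EPHX2, a soluble epoxide hydrolase, read 10.70, 9.64 and 10.01 in 21W28D and 8.64, 7.47, 9.06 and 8.18 in S21D (difference 1.78 ± 0.59). CBR1, a carbonyl reductase, lay at 2.08 on all 21W28D arrays and at 4.77, 2.08, 9.23 and 8.22 in S21D, so that the S21D piglets themselves were split. APOC2, the apolipoprotein that activates lipoprotein lipase, showed the same split, with 2.08, 2.09 and 2.08 in 21W28D and 3.09, 2.08, 10.46 and 10.85 in S21D. Both were high at 14 days, with S14D means of 12.98 for CBR1 and 14.36 for APOC2. The other detoxification genes of 24 measured, and the other fat absorption genes of 22 measured apart from LIPA, did not pass an unadjusted p of 0.05.

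**Figure D4:**
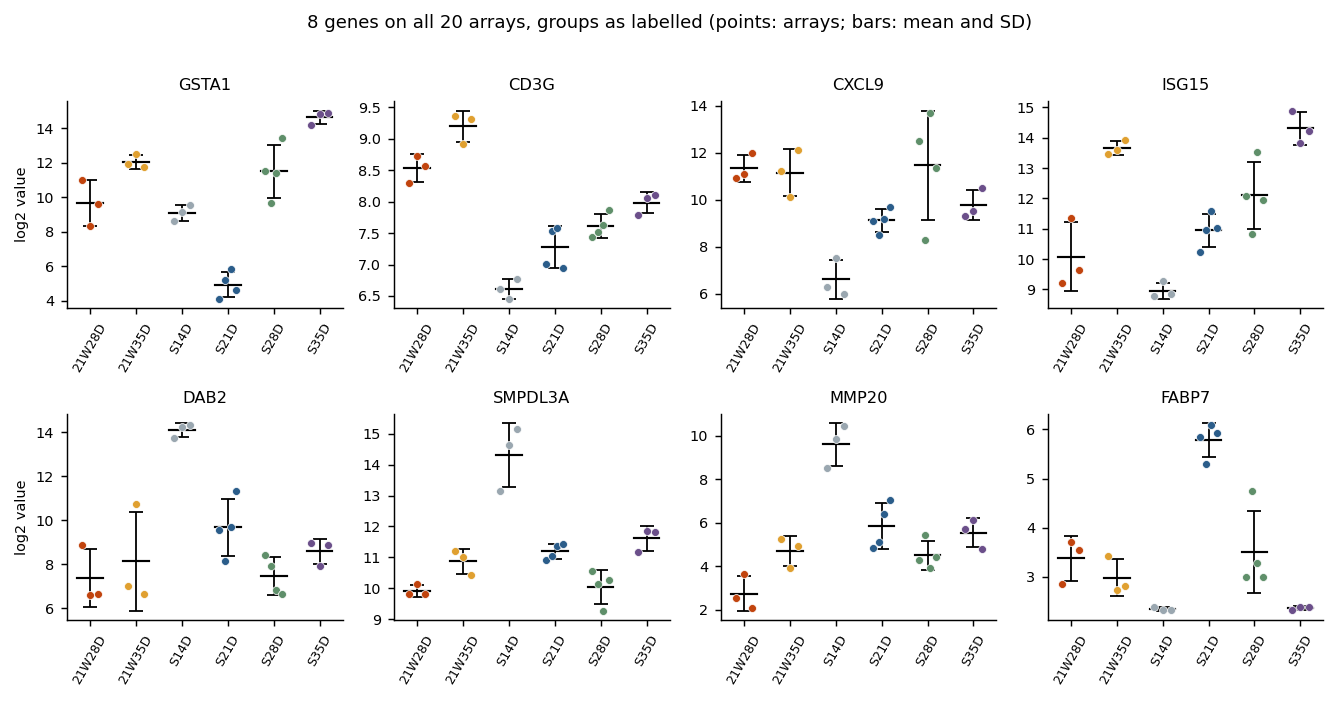
Log2 values of 8 genes on all 20 arrays, by group as labelled (x axis, weaned groups first and then the suckling groups by age), 1 point an array, with the mean and SD. GSTA1 is lowest and FABP7 highest in S21D, CD3G averages higher in both weaned groups than in any suckling group, DAB2, SMPDL3A and MMP20 are highest in S14D, and ISG15 is highest in the arrays labelled S35D.

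The remaining genes with the largest higher values had little in common by function. SNRPA1, a protein of the U2 splicing particle, read 5.43, 5.08 and 4.50 in 21W28D and 2.95, 2.96, 3.59 and 2.43 in S21D on a dim probe set (difference 2.02 ± 0.37, limma adjusted p = 0.183), while its bright probe set differed by -0.11. YBEY, an RNA-processing enzyme, likewise differed by 1.81 on 1 probe set and by -0.14 on a brighter one. OVGP1, a secreted glycoprotein known from the oviduct, read 6.92, 7.08 and 7.52 in 21W28D and 4.84, 4.84, 5.51 and 6.15 in S21D (difference 1.84 ± 0.63). AQP1, a water channel of vessels, read 9.48, 7.78 and 7.65 in 21W28D and 6.59, 6.59, 6.54 and 6.72 in S21D, with little spread in S21D. A2M, a broad protease inhibitor, read 5.26, 7.05 and 6.71 in 21W28D and 4.71, 5.07, 4.91 and 3.63 in S21D. LOC100621559, with no further name in the annotation, was higher on 6 of its 11 probe sets by 1.62 to 1.87 log2 units, and the other 5 lay at the floor.

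Of mucosal defence genes, PIGR, which moves IgA through enterocytes into the lumen, read 11.74, 11.33 and 9.82 in 21W28D and 10.10, 10.20, 9.20 and 9.74 in S21D (difference 1.15 ± 0.45). A less bright PIGR probe set differed by 0.81 ± 0.69. DMBT1, a bacteria-binding glycoprotein, read 8.48, 8.01 and 7.08 in 21W28D and 10.25, 10.23, 8.28 and 10.10 in S21D (difference -1.86 ± 0.82). Both overlapped between the groups. C4BPA, a brake on complement, was higher (9.52, 9.79 and 9.18 in 21W28D and 9.02, 8.93, 7.56 and 8.40 in S21D), and the protease CFD of the alternative pathway was lower by 0.54 log2 units with an overlap. HSD17B7, an enzyme of cholesterol synthesis, read 9.30, 9.64 and 9.07 in 21W28D and 8.23, 8.58, 8.72 and 8.15 in S21D (difference 0.92 ± 0.35), while the list of cholesterol synthesis had a median difference of 0.06. ACTG2, a smooth muscle actin, read 10.74, 12.001 and 12.27 in 21W28D and 13.01, 12.67, 12.80 and 13.25 in S21D (difference -1.26 ± 0.45). Another ACTG2 probe set differed by -0.18 with an overlap. The smooth muscle list had a median difference of 0.07, with 9 of 14 members higher by value. The part of muscle in the scraped samples was not tested.

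Most lists of epithelium and metabolism had median differences near 0. None of 12 enterocyte and brush border genes, 8 digestive hydrolases, 21 nutrient and ion transporters, 20 genes of mitochondrial fat oxidation, 26 of oxidative phosphorylation, 18 of glycolysis, 26 of the cell cycle, 12 of tight junctions and 9 of goblet cells passed an unadjusted p of 0.05. As 1.58% of all probe sets were higher and 0.942% lower at that p, a count of 0 in lists of this size says nothing about their members. Their median differences lay between -0.08 and 0.10. The 11 reference genes had a median difference of -0.03. The macrophage and dendritic cell list (17 genes, median -0.04) and the neutrophil list (10 genes, median -0.04) likewise held no gene that passed. In the mast cell and eosinophil list of 4 measured genes CCR3, the eotaxin receptor, was higher at an unadjusted p under 0.05 (4.16, 4.07 and 3.69 in 21W28D and 3.16, 2.82, 2.09 and 2.98 in S21D). It is dim, and was named after its values were seen. Whether the lists differ from each other was not tested.

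**Figure D5:**
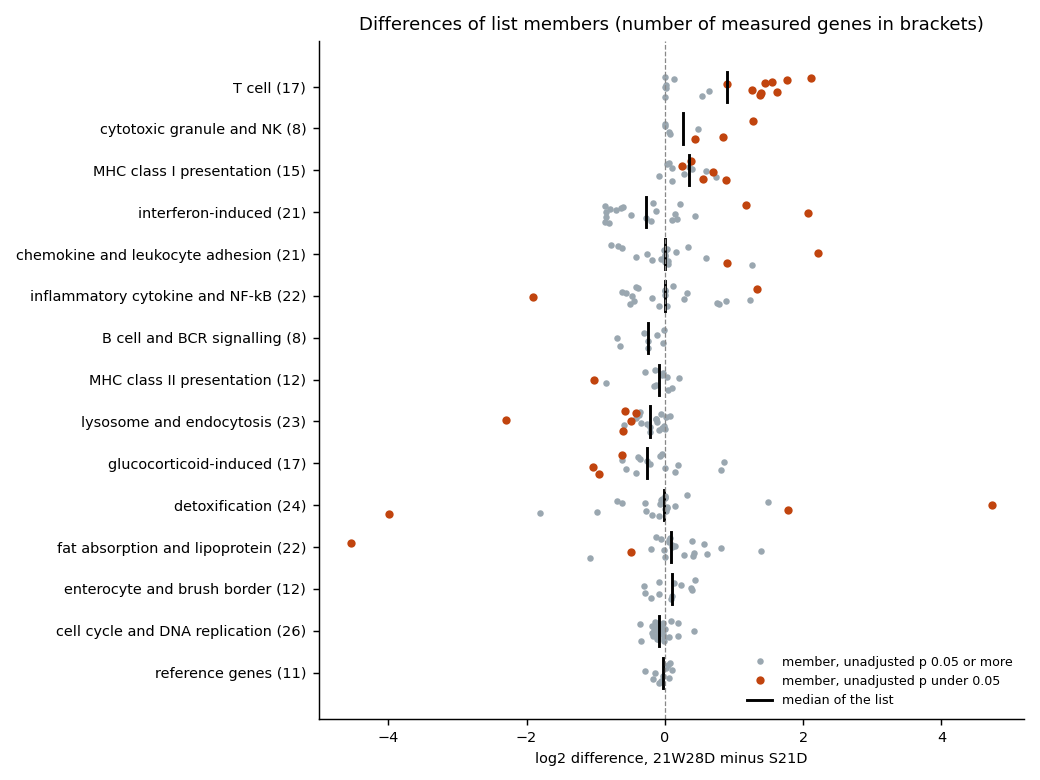
Log2 differences (x axis, 21W28D minus S21D) of the members of 15 gene lists (rows, with the number of measured genes), 1 point a gene, coloured where the unadjusted limma p is under 0.05, with the median of each list as a bar. The T cell row lies to the right with a median of 0.89 and the lysosome row to the left with -0.22, while single genes far from 0 (GSTA1 at 4.74, APOC2 at -4.54, CBR1 at -3.99) stand in lists whose medians are near 0.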

How the data were processed

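Ileal RNA of 20 piglets had been hybridised to Affymetrix porcine arrays, read with GCOS 1.2 and summarised by GCRMA per the submitters' processing notes. The deposited values are log2 signals of 24123 probe sets, normalized by the authors, with a floor of 2.08, and 41.6% of the values of the 7 arrays compared lay within 1 unit of it. The 124 AFFX control probe sets were left out. No scan date, and no litter of any array, is given in the sources used here, so no batch could be tested. Array medians of the 7 arrays lay between 5.19 and 5.27, the highest correlation between 2 arrays was 0.9967, and no columns were identical. The number of arrays limits the precision.

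All 20 arrays entered a limma fit (limma 3.58.1, R 4.3.3) with a mean per group, so that the 6 groups shared the estimate of the spread. The contrast was 21W28D minus S21D, and p-values were adjusted by Benjamini-Hochberg over 23999 probe sets. A probe set was called at an adjusted p under 0.05 and a 2-fold difference. Each array is a separate piglet, and p-values measure the spread between piglets. In 23999 simulated probe sets with 100 changed 2-fold and 100 changed 4-fold, 46% and 85% of them were significant in this comparison. These shares count significance by p, and the share that also passes the 2-fold limit of a call is not given. Gene symbols came from the platform annotation: 10069 probe sets had 1 symbol, 198 several and 13732 none, and 9961 were found in the Sscrofa11.1 gene table. A gene of a list is its brightest probe set.

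Named genes were those the study follows singly, the 12 with the largest difference in each direction (1 symbol, unadjusted p under 0.05, no overlap, mean of at least 4 in the higher group), up to 4 members of each list by the same p, and the 2 brightest members of a list, for which levels alone are given. The members and the 42 lists were chosen with earlier results of these data known, and other genes are marked as named after their values were seen. Alternatives were a filter on dim probe sets, fits of the 7 arrays alone or without S14D, an intensity trend, median centring, quantile normalization, a replicate block, 1 probe set per gene, the methods' t-test, leaving out each array and exchanging the labels S35D and 21W28D. The labels do not say whether the replicate numbers pair piglets.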

Additional observations from a re-analysis of the deposited data

Results flagged for a closer look

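In 7 of 111 sets of 4 S21D values examined, 1 array lay far from the other S21D arrays, and chance alone marks about 1 set in 20. Among the genes, ANGPTL4 was 9.86 on replicate 4, against 8.92 to 9.07 on the others. DMBT1 was 8.28 on replicate 3, against 10.10 to 10.25 on the others. ICAM1 was 9.45 on replicate 2, against 9.74 to 9.79, and LAT was 4.01 on replicate 4, against 4.64 to 4.69. Among the list scores, that of MHC class II presentation was 0.77 on replicate 3, against 0.29 to 0.33. The detoxification score was -0.54 on replicate 1, against -0.09 to -0.01, and the erythrocyte score was 0.36 on replicate 1, against -0.25 to -0.15. The 21W28D group, with 3 arrays, was not examined in this way.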

How the results depend on the processing

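No probe set was called in the fit as reported. Restricted to probe sets that reach 4 log2 units on 3 or more arrays, with median centring of each array, or with 1 probe set per gene, 4 were called each time, and these were CD3G, PRKCH and GSTA1 as higher and FABP7 as lower (adjusted p = 0.0198 to 0.0499, limma). A gene can pass the filter on dim probe sets through the group where it is high. FABP7 did so, since it averaged at least 4 log2 units in S21D only, and its call under that filter is no further support. Leaving out 1 array gave 0 to 3 calls and 510 to 922 probe sets at an unadjusted p under 0.05: CD3G and 2 unnamed probe sets without replicate 1 of 21W28D, 2 unnamed ones without its replicate 3, PRKCH without replicate 2 of S21D and CD3G without its replicate 3, and 922 at the unadjusted p without replicate 2 of 21W28D. The methods' t-test passed 130 at an unadjusted p under 0.05 and 2-fold, and 0 after Benjamini-Hochberg. The paper reports many more genes for this comparison with that test and the same unadjusted cut-offs.

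With the labels S35D and 21W28D exchanged, 382 probe sets were called and 4739 had an unadjusted p under 0.05. The median differences were then 0.0186 for the T cell list, -2.0 for the B cell list, 0.47 for MHC class I, 2.46 for the interferon-induced list and 0.0595 for the lysosome list. ISG15 (3.36) and USP18 (2.14) had the opposite sign, IFIT2 was 3.48, and VAV1 was -1.20. VAV1, near 0 as reported, ranged between -0.14 and 0.32 over the fits that left out 1 array, among them -0.006, -0.02 and -0.10. The T cell median was 1.39 without dim probe sets and 0.77 to 1.24 with 1 array left out. With 1 array left out the lysosome median was -0.40 to -0.16, the interferon-induced median -0.55 to -0.12 and the B cell median -0.45 to 0.12. The cause of these moves was not tested. T cell genes too can pass the filter on dim probe sets through a group where they are high, so the 1.39 is no further support.

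With the replicate block 0 probe sets were called and 657 had an unadjusted p under 0.05, and it changed no other call. Deviations of arrays with the same number correlated at 0.034, -0.030 and 0.071, against -0.589 to 0.622 for arrays with different numbers. As no litter is given, these values cannot settle whether the numbers pair the piglets. Array values near the floor limit differences of dim genes.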
